A study of Mus musculus with 12 samples.

Results

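Genes that copy DNA and genes that carry cells through mitosis were followed across mouse pluripotent cell lines and the epiblast tissue of the embryo. A list of 40 genes was used, 25 of DNA replication and 15 of mitosis. Each was read from the probe set that carries its symbol alone, and where there were 2 such probe sets (Pole and Rrm2) the one with the highest mean over the 12 arrays was taken. This gave 38 genes, 24 of replication and 14 of mitosis, of the 22180 genes with a probe set of their own. Rfc4, a subunit of the clamp loader, shares its probe set with Eif4a2 and was skipped, and the mitotic cyclin gene Ccnb1 has no entry in the probe set table used here.

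Expression was measured on 12 microarrays, 2 for each of 6 groups. The rsEpiSC lines, which other label fields call intrinsic state epiblast stem cells, were derived at embryonic day (E) 6.5 and at E5.75 and grew with 2.5 µM IWR1, an inhibitor of Wnt signalling, plus 20 ng/ml of a factor left unnamed in the labels. Epiblast stem cells (EpiSC) were derived at E5.75 and grew with 12 ng/ml FGF2, 20 ng/ml Activin A and 20% serum replacement (KSR). Embryonic stem cells (ESC) were derived at E3.5 and were kept with LIF and 2 inhibitors, CHIR99021 at 3 µM, which acts on GSK3, and PD0325901 at 1 µM, which acts on MEK. The medium of all lines was based on N2B27, and fibroblast feeders from mouse embryos lay under them. Epiblast tissue itself, taken at E6.5 and at E5.75, made up the other groups. All groups carry the OCT4-deltaPE-GFP reporter, crossed to C57BL/6 in ESC and EpiSC; in the other groups the number at the end of the strain field, like that of the passage range of the lines, counts up from array to array, so neither field was used. The labels do not say how many lines or embryos a group holds, or whether its arrays are separate cultures or embryos, so a p-value reflects only how far these arrays differ from each other, which may be technical.

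Replication starts when the origin recognition complex, with Orc1, and the loaders Cdc6 and Cdt1 place the Mcm2 to Mcm7 helicase on DNA. Mcm10 and the GINS complex help to switch the helicase on, polymerases copy the strands with the Pcna clamp that the Rfc proteins load, and ribonucleotide reductase and thymidylate synthase supply nucleotides. Mitosis runs on the kinase Cdk1 and its cyclins, with Plk1 and the Aurora kinases, until Cdc20 activates the anaphase-promoting complex once the Bub1 and Bub1b checkpoint is satisfied. Transcripts of the replication genes typically peak around the entry into S phase and those of the mitosis genes in G2 and M phase. Pluripotent cells of the mouse are known for fast division with a short G1 phase, and the epiblast divides fastest around gastrulation.

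Signals are log2 values. A difference is 1 group mean minus another in log2 units, given ± its standard error from limma, and a gene rose or fell where its p, adjusted over all 22180 genes, was under 0.05. All 38 genes had a mean log2 signal of at least 4 over the 12 arrays, which 64.3% of all genes reached. Levels of different probe sets were not compared with each other. The labels were set against marker genes by the sum of their signals on the linear scale. Over 8 naive pluripotency markers the sum was 6059 and 8613 on the ESC arrays and 171 to 626 elsewhere. Over 7 primed epiblast markers it was 1493 to 3245 in rsEpiSC, 628 and 1208 in EpiSC, 295 and 534 in ESC and 4266 to 4919 in tissue. A sum rests mostly on the strongest signals, and the primed markers did not all follow it. In rsEpiSC E5.75, Otx2 was 9.29 on both arrays (6 and 4.84 in ESC), but Fgf5 was 3.78 and 4.17 (3.27 and 3.44 in ESC). Over 13 fibroblast markers it was 565 to 1184 in rsEpiSC, 1406 and 2203 in EpiSC, 316 and 356 in ESC and 301 to 336 in tissue. In lines grown on feeders, fewer cells of a type and less RNA per cell cannot be told apart. The interquartile range of all genes was 3.07 to 3.31 on the cultured arrays and 2.23 to 2.68 on the tissue arrays.

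Promoters of many replication genes are known to bind E2F factors, and those of many mitosis genes carry a cell cycle homology region (CHR) near CCAAT boxes, where the MuvB complexes and NF-Y bind. Promoters of 300 bases, 250 before the start of the gene and 50 from it on, were at hand from RefSeq (GRCm38.p6) for 31 of the 38 genes. The 6 shown belong to the 3 replication and the 3 mitosis genes that, among those with a promoter at hand, lead in rsEpiSC E5.75 against EpiSC, first the genes that passed and then by size. Their positions are chr1:128359656-128359955 (minus strand) for Mcm6, chr1:20820263-20820562 (minus strand) for Mcm3, chr12:24708004-24708303 (plus strand) for Rrm2, chr7:135716330-135716629 (minus strand) for Mki67, chr19:37376132-37376431 (plus strand) for Kif11 and chr10:69352863-69353162 (minus strand) for Cdk1. Each is written 5′ to 3′ along the gene, and capitals mark every match, on either strand, to the E2F-type octamers TTTCCCGC, TTTCGCGC, TTTGCCGC and TTTGGCGC, the CHR-type hexamers TTTGAA and TTTAAA, and CCAAT.
Mcm6: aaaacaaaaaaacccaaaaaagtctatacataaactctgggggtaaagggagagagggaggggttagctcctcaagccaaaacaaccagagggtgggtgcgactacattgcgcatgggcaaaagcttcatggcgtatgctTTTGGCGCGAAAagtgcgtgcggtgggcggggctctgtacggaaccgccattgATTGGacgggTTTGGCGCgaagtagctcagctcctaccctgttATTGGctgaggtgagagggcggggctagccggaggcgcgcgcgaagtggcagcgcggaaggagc
Mcm3: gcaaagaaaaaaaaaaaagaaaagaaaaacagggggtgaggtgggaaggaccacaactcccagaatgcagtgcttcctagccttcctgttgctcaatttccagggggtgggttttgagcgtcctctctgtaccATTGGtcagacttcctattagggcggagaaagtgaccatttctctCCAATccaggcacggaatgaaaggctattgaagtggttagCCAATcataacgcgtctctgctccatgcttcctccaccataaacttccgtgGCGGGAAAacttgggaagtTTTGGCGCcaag
Rrm2: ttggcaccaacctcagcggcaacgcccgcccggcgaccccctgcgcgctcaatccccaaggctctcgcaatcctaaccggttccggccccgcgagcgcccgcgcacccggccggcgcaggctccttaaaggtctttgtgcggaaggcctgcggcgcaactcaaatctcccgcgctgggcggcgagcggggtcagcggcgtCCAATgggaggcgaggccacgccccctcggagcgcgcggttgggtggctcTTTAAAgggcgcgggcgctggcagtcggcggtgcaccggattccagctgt
Mki67: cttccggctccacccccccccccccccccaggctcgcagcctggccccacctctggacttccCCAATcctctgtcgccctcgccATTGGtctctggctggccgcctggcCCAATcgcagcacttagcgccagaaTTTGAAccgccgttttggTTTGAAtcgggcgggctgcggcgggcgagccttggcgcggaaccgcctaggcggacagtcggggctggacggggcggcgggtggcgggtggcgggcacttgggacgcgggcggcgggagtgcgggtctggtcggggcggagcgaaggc
Kif11: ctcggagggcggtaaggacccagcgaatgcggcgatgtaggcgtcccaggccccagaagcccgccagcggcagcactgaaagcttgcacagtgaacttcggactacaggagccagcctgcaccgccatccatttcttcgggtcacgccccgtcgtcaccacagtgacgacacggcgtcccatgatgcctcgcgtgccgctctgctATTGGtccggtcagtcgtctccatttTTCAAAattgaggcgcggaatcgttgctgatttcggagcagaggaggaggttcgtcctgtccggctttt
Cdk1: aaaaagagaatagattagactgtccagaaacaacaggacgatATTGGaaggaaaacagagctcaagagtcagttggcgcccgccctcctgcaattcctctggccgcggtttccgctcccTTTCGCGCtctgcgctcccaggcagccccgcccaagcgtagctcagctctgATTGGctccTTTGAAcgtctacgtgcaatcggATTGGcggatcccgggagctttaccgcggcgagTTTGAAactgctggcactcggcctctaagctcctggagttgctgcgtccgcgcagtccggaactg
Mcm6 held 3 E2F-type matches, of which the pair at positions -110 and -106 from the start of the gene lies on opposite strands and overlaps. Mcm3 held 2 E2F-type matches, both within the gene, while Rrm2 held none. Mki67 and Cdk1 held 2 CHR-type matches each and 3 CCAAT matches each, and Kif11 held 1 of either kind. Cdk1 also held 1 E2F-type match. The replication promoters shown held CCAAT matches too, 3 in Mcm3, 2 in Mcm6 and 1 in Rrm2, and Rrm2 held 1 CHR-type match.

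The classes differed in these letters. An E2F-type octamer was found in 60% of the 20 promoters of replication genes, 8.33% of the 12 promoters of mitosis genes and 2.27% of all 32841 promoters of the table. A CHR-type hexamer was found in 20% of the replication promoters, 91.7% of the mitosis promoters and 27.6% of all promoters. CCAAT was found in 70%, 91.7% and 37.4% of them in the same order, and a CHR-type hexamer together with CCAAT in 20%, 83.3% and 10.7%. A match to these letters is a description of the sequence, and binding was not measured.

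The mean log2 signal over the 12 arrays ran from 6.56 (Gins3) to 10.8 (Pcna) among the replication genes and from 8.20 (Cenpa) to 10.26 (Ccnb2) among the mitosis genes. Between the highest and the lowest group mean of a gene lay a median of 1.23 for replication genes and 1.22 for mitosis genes, against 0.94 for all genes. Gins2 had the widest such range of the replication genes, 2.50, and Mcm2 the narrowest, 0.45. Among the mitosis genes the widest was that of Cenpa, 2.33, which codes for the histone variant of the centromere, and the narrowest was that of Ccna2, 0.31, the cyclin that serves both S phase and mitosis.

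By group means the replication genes were mostly lowest in EpiSC, and by array medians they were highest in rsEpiSC. EpiSC had the lowest group mean for 15 of 24 replication genes, 62.5%, against 19% of all genes, and had the highest for 0. That count includes EpiSC replicate 1 and was not made without it. For some of these genes it rested on that array: EpiSC replicate 2 was above the ESC mean for Pcna (10.62 against 10.46) and Rrm2 (10.25 against 10.09). For others it did not: Pola1 (6.19) and Mcm6 (8.9) on EpiSC replicate 2 were below every other group mean. rsEpiSC E6.5 had the highest mean for 10 of 24 (9.18% of all genes), and rsEpiSC E5.75 for 4, 16.7% (12.1% of all genes). Neither had the lowest for any (13.1% and 15.5% of all genes). On each array, each gene was set against its own mean over the 12 arrays. The median of these deviations over the replication genes was 0.33 and 0.38 on the rsEpiSC E6.5 arrays, 0.24 and 0.20 in rsEpiSC E5.75, -0.85 and -0.07 in EpiSC, 0.12 and -0.38 in ESC, 0.04 and 0.15 in epiblast E6.5, and -0.18 and 0.17 in epiblast E5.75.

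The EpiSC arrays differed from each other in the replication genes. EpiSC replicate 1 was below replicate 2 for 24 of 24 replication genes, by a median of 0.75, while for the 14 mitosis genes the median of replicate 2 minus replicate 1 was 0.03 and for all genes 0. On EpiSC replicate 1, 23 of 24 replication genes lay below their own mean over the 12 arrays, and on replicate 2 it was 14 of 24. The median deviation on EpiSC replicate 2, -0.07, was above that on ESC replicate 2, -0.38, and on epiblast E5.75 replicate 1, -0.18. ESC replicate 2 was below replicate 1 for 22 of 24 replication genes (median -0.51) and 12 of 14 mitosis genes (median -0.33). In rsEpiSC E6.5 and rsEpiSC E5.75 the median of replicate 2 minus replicate 1 was -0.04 and -0.07 for replication genes. Results against EpiSC are therefore given with and without EpiSC replicate 1, for the further lists as counts and medians.

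**Figure D1:**
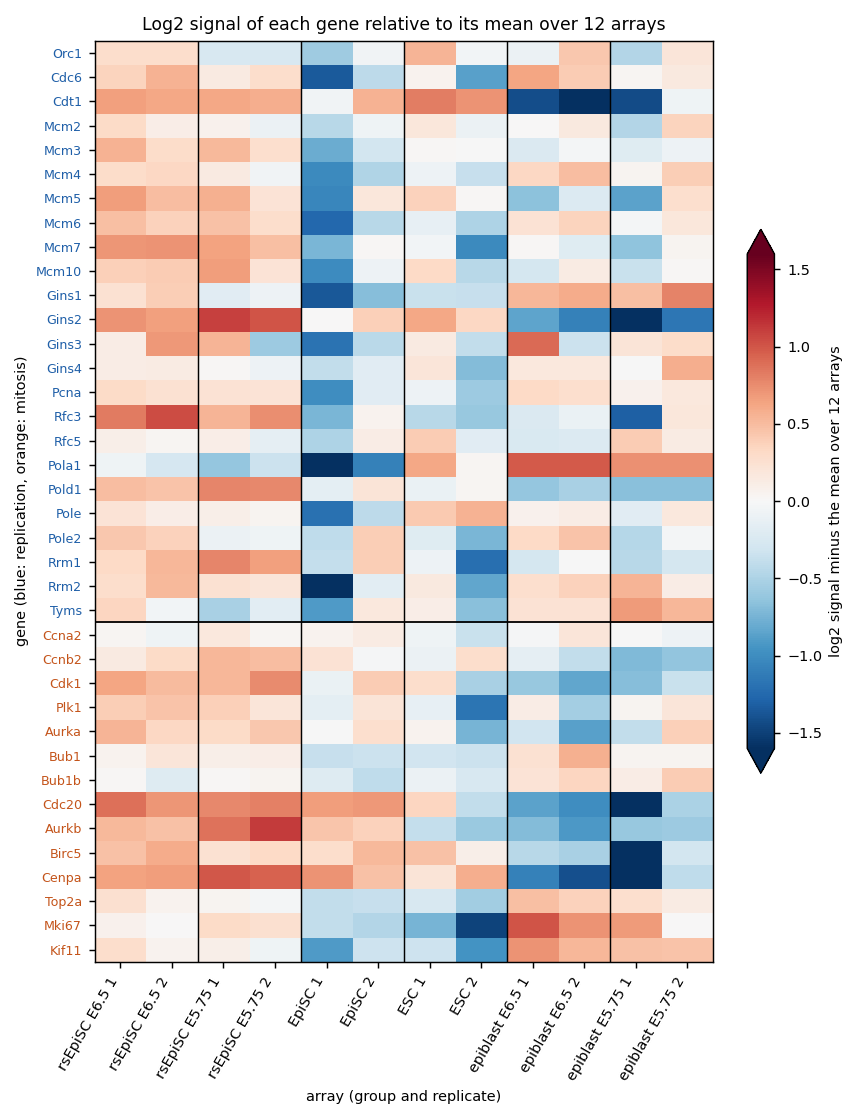
Log2 signal of 38 genes on 12 arrays, each gene relative to its own mean over the 12 arrays (red above, blue below, darkest at and beyond the ends of the scale), with 24 replication genes above the black horizontal line and 14 mitosis genes below it. The replication genes are blue on EpiSC replicate 1, where 23 of 24 lie below their mean, and the tissue arrays at the right split the mitosis genes into low (such as Cdc20 and Cenpa) and high (such as Kif11 and Mki67).

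The mitosis genes followed another order. ESC had the lowest mean for 5 of 14 mitosis genes, epiblast E5.75 for 4, epiblast E6.5 for 3 and EpiSC for 2. In the same order these groups were lowest for 20.3%, 16.5%, 15.6% and 19% of all genes. The highest means were divided between rsEpiSC E5.75 (5), epiblast E6.5 (5) and rsEpiSC E6.5 (4), which were highest for 12.1%, 22.9% and 9.18% of all genes. The median deviation over the mitosis genes was 0.33 and 0.32 in rsEpiSC E6.5, 0.31 and 0.29 in rsEpiSC E5.75, -0.06 and 0.17 in EpiSC, -0.09 and -0.46 in ESC, -0.08 and -0.46 in epiblast E6.5, and -0.19 and -0.03 in epiblast E5.75. EpiSC replicate 1, the lowest array for replication genes, was thus within the range of the other arrays for mitosis genes.

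Genes of the same class varied together to different degrees. The median Pearson correlation between pairs of genes over the 12 arrays was 0.50 for 276 pairs of replication genes, 0.21 for 91 pairs of mitosis genes and 0.26 for 336 pairs of 1 gene from each class. Over the 8 cultured arrays alone the medians were 0.71, 0.64 and 0.44. These are descriptions, since all pairs share the same arrays and the same differences between groups.

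**Figure D2:**
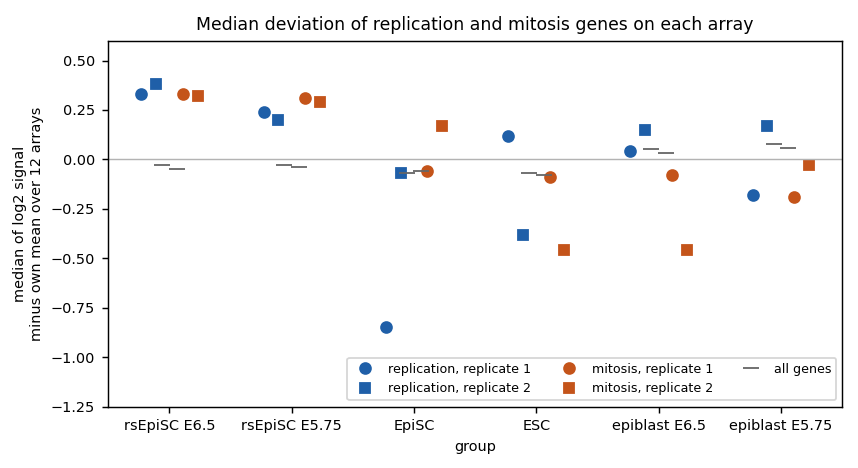
Median over 24 replication genes (blue) and 14 mitosis genes (orange) of the log2 signal minus each gene's own mean over 12 arrays, for replicate 1 (circle) and replicate 2 (square) of each group, with the median over all genes as a grey bar. The lowest point is that of the replication genes on EpiSC replicate 1, -0.85, and all rsEpiSC points of both classes lie between 0.20 and 0.38.

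rsEpiSC and EpiSC are both lines from the post-implantation epiblast, grown in the medium with IWR1 and in the one with FGF2 and Activin A. Their entries in the strain field also differ, and rsEpiSC E6.5 were derived at a later stage than EpiSC, so medium, strain entry and, for rsEpiSC E6.5, stage cannot be told apart. Replication genes were higher in rsEpiSC, by a median of 0.95 in rsEpiSC E6.5 and 0.82 in rsEpiSC E5.75, where the median of all genes was 0.02 in both. In rsEpiSC E6.5 24 of 24 were higher than in EpiSC and 5 rose: Gins1, Mcm6, Pola1, Mcm4 and Mcm3. In rsEpiSC E5.75 23 of 24 were higher and 2 rose, Mcm6 and Mcm3. The rises are 20.8% and 8.33% of the class, against 1.33% of all genes that rose in rsEpiSC E6.5 and 1.56% in rsEpiSC E5.75 (3.89% and 3.87% in either direction). These comparisons share the EpiSC arrays and are not independent.

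The licensing genes, which load the helicase onto origins, were higher in both rsEpiSC groups for 9 of 9, with medians of 1.01 and 0.82. Mcm6, a helicase subunit, had log2 signals of 9.83 and 9.72 in rsEpiSC E6.5, 9.82 and 9.63 in rsEpiSC E5.75, 8.09 and 8.90 in EpiSC, 9.22 and 8.85 in ESC, 9.58 and 9.70 in epiblast E6.5 and 9.32 and 9.53 in epiblast E5.75. All 4 rsEpiSC arrays were above both EpiSC arrays, and EpiSC replicate 1 was the lowest of all 12. The difference was 1.28 ± 0.26 (adjusted p = 0.0165) in rsEpiSC E6.5 and 1.23 ± 0.26 (adjusted p = 0.0183) in rsEpiSC E5.75, which is 2.43-fold and 2.35-fold. Mcm3, another subunit of the same ring, had 9.47 and 9.21 in rsEpiSC E6.5, 9.43 and 9.19 in rsEpiSC E5.75, 8.12 and 8.62 in EpiSC, 8.94 and 8.91 in ESC, 8.68 and 8.88 in epiblast E6.5 and 8.72 and 8.83 in epiblast E5.75. The rsEpiSC arrays did not overlap with the EpiSC arrays, and Mcm3 rose by 0.97 ± 0.23 (adjusted p = 0.034) and 0.94 ± 0.23 (adjusted p = 0.0379). Mcm4 had 9.41 and 9.45 in rsEpiSC E6.5, 9.26 and 9.07 in rsEpiSC E5.75, 8.10 and 8.64 in EpiSC, 9.04 and 8.75 in ESC, 9.45 and 9.62 in epiblast E6.5 and 9.16 and 9.51 in epiblast E5.75. In Mcm4 the epiblast arrays overlapped with the rsEpiSC arrays, and the EpiSC arrays were the lowest 2. Mcm4 rose in rsEpiSC E6.5 (1.06 ± 0.23, adjusted p = 0.0273) and did not pass in rsEpiSC E5.75 (0.80 ± 0.23, adjusted p = 0.0984). The remaining members did not pass: in rsEpiSC E6.5 their differences ran from 0.39 ± 0.38 (Cdt1) to 1.34 ± 0.35 (Cdc6, adjusted p = 0.0554), and in rsEpiSC E5.75 from 0.06 ± 0.32 (Orc1) to 1.10 ± 0.35 (Cdc6).

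Of the 5 genes that help to activate the helicase, 5 were higher in both rsEpiSC groups. Gins1, a subunit of the GINS complex, had 7.65 and 7.79 in rsEpiSC E6.5, 7.22 and 7.32 in rsEpiSC E5.75, 6.04 and 6.72 in EpiSC, 7.05 and 7.03 in ESC, 7.93 and 8.00 in epiblast E6.5 and 7.88 and 8.19 in epiblast E5.75. The rsEpiSC arrays were above both EpiSC arrays and below both epiblast E5.75 arrays. Gins1 rose by 1.34 ± 0.27 in rsEpiSC E6.5 (adjusted p = 0.0163) and differed by 0.89 ± 0.27 in rsEpiSC E5.75 (adjusted p = 0.107). Gins2, Gins3, Gins4 and Mcm10 did not pass, with differences of 0.42 to 1.22 in rsEpiSC E6.5 and 0.26 to 0.98 in rsEpiSC E5.75.

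Polymerase genes differed less evenly. Pola1, the catalytic subunit of polymerase alpha, which makes the primers, had 7.21 and 7.00 in rsEpiSC E6.5, 6.66 and 6.93 in rsEpiSC E5.75, 5.58 and 6.19 in EpiSC, 7.89 and 7.30 in ESC, 8.26 and 8.25 in epiblast E6.5 and 8.01 and 8.00 in epiblast E5.75. The order of the group means was epiblast E6.5, epiblast E5.75, ESC, rsEpiSC E6.5, rsEpiSC E5.75 and EpiSC from high to low. Both EpiSC arrays were below every other array. Pola1 rose in rsEpiSC E6.5 against EpiSC (1.22 ± 0.29, adjusted p = 0.0379) and differed by 0.91 ± 0.29 in rsEpiSC E5.75 (adjusted p = 0.132). The subunit genes Pold1 and Pole and the accessory subunit Pole2 did not pass, and Pole2 had the lowest difference of the replication genes in rsEpiSC E5.75, -0.07 ± 0.31. Pcna, the sliding clamp, was 0.86 ± 0.23 higher in rsEpiSC E6.5 (adjusted p = 0.0695) and 0.81 ± 0.23 in rsEpiSC E5.75 (adjusted p = 0.09), and the clamp loader genes Rfc3 and Rfc5 did not pass either; Rfc5 had the lowest difference of the class in rsEpiSC E6.5, 0.25 ± 0.28. Of the nucleotide supply genes, Rrm2, the radical-bearing subunit of ribonucleotide reductase, differed by 1.31 ± 0.40 and 1.14 ± 0.40 and did not pass, with EpiSC arrays at 8.76 and 10.25.

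The calls of replication genes against EpiSC depended on single arrays. Without EpiSC replicate 1, 0 replication genes passed in limma in either comparison, and the median difference was 0.46 (22 of 24 higher) in rsEpiSC E6.5 and 0.45 (20 of 24 higher) in rsEpiSC E5.75. Without EpiSC replicate 2 the medians were 1.30 in rsEpiSC E6.5 and 1.18 in rsEpiSC E5.75. Leaving out either replicate of the rsEpiSC group also left 0 past the threshold, with medians of 0.88 and 0.93 in rsEpiSC E6.5 and 0.75 and 0.86 in rsEpiSC E5.75. In all of these fits at least 20 of 24 replication genes were higher in rsEpiSC.

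**Figure D3:**
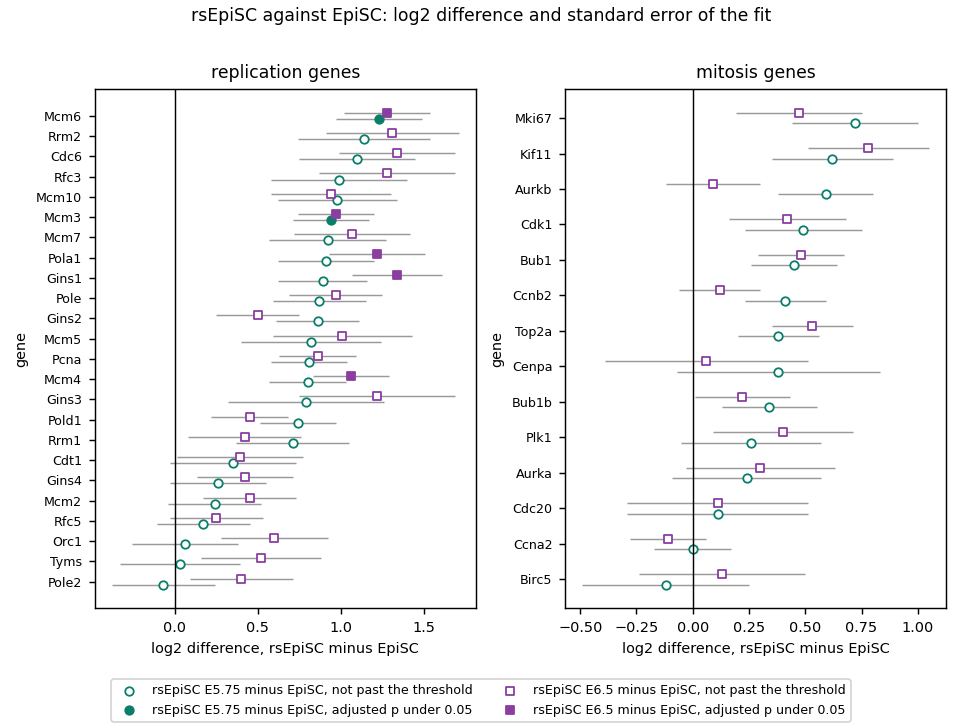
Log2 difference of each gene, rsEpiSC E5.75 minus EpiSC (green circles) and rsEpiSC E6.5 minus EpiSC (purple squares), with the standard error of the fit, for 24 replication genes (left) and 14 mitosis genes (right), which have their own axes. Filled symbols passed an adjusted p of 0.05: Mcm6 and Mcm3 in both, and Gins1, Pola1 and Mcm4 in rsEpiSC E6.5.

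Mitosis genes were also higher in rsEpiSC than in EpiSC, by less. The median was 0.26 in rsEpiSC E6.5 and 0.38 in rsEpiSC E5.75, and 13 of 14 were higher in each. Of the 14, 0 passed in limma: at an unadjusted p under 0.05 there were 3 of 14 in rsEpiSC E6.5, where 14.2% of all genes had such a p, and 5 of 14 in rsEpiSC E5.75, where 13.7% did. Both rsEpiSC arrays were above both EpiSC arrays for 10 of 14 mitosis genes in rsEpiSC E6.5 (25.9% of all genes) and 11 of 14 in rsEpiSC E5.75 (24.7% of all genes). For the replication genes the same held for 20 and 18 of 24. The highest differences were those of Kif11, the motor that separates spindle poles, in rsEpiSC E6.5 (0.78 ± 0.27, adjusted p = 0.158) and of Mki67, the proliferation marker that coats mitotic chromosomes, in rsEpiSC E5.75 (0.72 ± 0.28, adjusted p = 0.253). The lowest were Ccna2 in rsEpiSC E6.5 (-0.11 ± 0.17) and Birc5, a subunit of the chromosomal passenger complex, in rsEpiSC E5.75 (-0.12 ± 0.37). Without EpiSC replicate 1 the median was 0.20 in rsEpiSC E6.5 and 0.35 in rsEpiSC E5.75. The difference between the classes was not tested. The summed signal of the feeder markers was lower in rsEpiSC than in EpiSC, as given above, but the markers did not all go one way: 9 of 13 were lower and 4 of 13 higher in either rsEpiSC group. Tagln, Acta2 and Col1a2 fell in rsEpiSC E6.5 (-3.76 ± 0.34, -2.86 ± 0.33 and -2.71 ± 0.63), and Tagln and S100a4 fell in rsEpiSC E5.75 (-1.85 ± 0.34 and -1.65 ± 0.40), where Pdgfra was at 1.26 ± 0.40 (adjusted p = 0.132). Their part in these differences was not tested.

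EpiSC were compared with ESC, the lines of the naive state. Of the replication genes 19 of 24 were lower in EpiSC, with a median of -0.48, and of the mitosis genes 12 of 14 were higher, with a median of 0.24, while the median of all genes was 0. Without ESC replicate 2 the mitosis genes had a median of 0.11 with 8 of 14 higher, and the difference between the classes was not tested. In the replication genes 2 fell, Pola1 and Pole, and in the mitosis genes 1 rose, Aurkb, against 6.29% of all genes that passed, of which 2.7% fell and 3.6% rose.

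Pola1 fell by 1.71 ± 0.29 on the log2 scale (adjusted p = 0.00337), with both EpiSC arrays below both ESC arrays. Pole, the catalytic subunit of polymerase epsilon of the leading strand, had 7.67 and 7.55 in rsEpiSC E6.5, 7.54 and 7.49 in rsEpiSC E5.75, 6.25 and 7.03 in EpiSC, 7.87 and 8.00 in ESC, 7.51 and 7.57 in epiblast E6.5 and 7.27 and 7.62 in epiblast E5.75. The ESC arrays were the highest 2 of the 12 and the EpiSC arrays the lowest 2. Pole fell by 1.29 ± 0.28 (adjusted p = 0.016). This call was lost when the mean of the 2 Pole probe sets was used in place of the higher one. Aurkb, the kinase of the chromosomal passenger complex, had 9.00 and 8.95 in rsEpiSC E6.5, 9.35 and 9.60 in rsEpiSC E5.75, 8.93 and 8.85 in EpiSC, 8.11 and 7.89 in ESC, 7.79 and 7.57 in epiblast E6.5 and 7.88 and 7.91 in epiblast E5.75. Aurkb was high in all lines but ESC, where it was near the level of the tissue, and it rose by 0.89 ± 0.21 in EpiSC (adjusted p = 0.026).

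The other replication genes ran from -0.68 ± 0.47 (Gins3) to 0.65 ± 0.34 (Rrm1), and 0 of 9 licensing genes and 0 of 5 helicase activation genes passed. Of the mitosis genes, Mki67 (0.68 ± 0.28, adjusted p = 0.229), Cdc20 (0.71 ± 0.40, adjusted p = 0.455) and Plk1 (0.67 ± 0.31, adjusted p = 0.303) did not pass, and the lowest was Bub1b (-0.13 ± 0.21). Without EpiSC replicate 1 the median of the replication genes was -0.02, with 10 of 24 higher in EpiSC, and Pola1 was the replication gene that still passed; without ESC replicate 1 it was -0.11. Pole did not pass without ESC replicate 2 or EpiSC replicate 1, and Aurkb did not pass without ESC replicate 2 or either EpiSC array. Fitted on the 4 arrays of these groups alone, 0 of the 38 passed.

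rsEpiSC E5.75 were also compared with ESC. Of 14 mitosis genes 13 were higher on both rsEpiSC E5.75 arrays than on both ESC arrays, as were 13 of 24 replication genes and 27% of all genes. The median difference of the mitosis genes was 0.61, and the difference between the classes was not tested. Aurkb rose by 1.48 ± 0.21 (adjusted p = 0.000739) and Mki67 by 1.4 ± 0.28 (adjusted p = 0.00717). Mki67 had 8.89 and 8.83 in rsEpiSC E6.5, 9.13 and 9.08 in rsEpiSC E5.75, 8.43 and 8.35 in EpiSC, 8.07 and 7.34 in ESC, 9.83 and 9.54 in epiblast E6.5 and 9.50 and 8.83 in epiblast E5.75. It was lowest on the ESC arrays, which lay far apart, and highest in epiblast E6.5. The kinase genes Plk1 (0.94 ± 0.31, adjusted p = 0.0853) and Cdk1 (0.76 ± 0.26, adjusted p = 0.1) did not pass, and Birc5 had the lowest difference (-0.01 ± 0.37).

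The replication genes had a median of 0.33 in this comparison, with 17 of 24 higher in rsEpiSC E5.75. Rrm1, the large subunit of ribonucleotide reductase, had 9.15 and 9.36 in rsEpiSC E6.5, 9.61 and 9.48 in rsEpiSC E5.75, 8.45 and 9.22 in EpiSC, 8.74 and 7.62 in ESC, 8.55 and 8.82 in epiblast E6.5 and 8.38 and 8.55 in epiblast E5.75. The rsEpiSC E5.75 arrays were the highest 2, ESC replicate 2 was the lowest, and Rrm1 rose by 1.36 ± 0.34 (adjusted p = 0.0245). Pold1, the catalytic subunit of polymerase delta of the lagging strand, had 7.94 and 7.90 in rsEpiSC E6.5, 8.22 and 8.21 in rsEpiSC E5.75, 7.29 and 7.65 in EpiSC, 7.34 and 7.47 in ESC, 6.83 and 6.92 in epiblast E6.5 and 6.77 and 6.78 in epiblast E5.75. It was higher on every rsEpiSC array than on any other, and it rose by 0.81 ± 0.23 (adjusted p = 0.0445). Pola1 had the lowest difference, -0.80 ± 0.29 (adjusted p = 0.116). In either class 2 rose, 8.33% of the replication and 14.3% of the mitosis genes, against 5.49% of all genes that rose and 10.3% that passed in either direction. Aurkb passed in every fit that left out an array. Without ESC replicate 2, Mki67 and Rrm1 did not pass, and neither passed without either rsEpiSC E5.75 array; Pold1 passed in 0 of the 4 such fits.

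**Figure D4:**
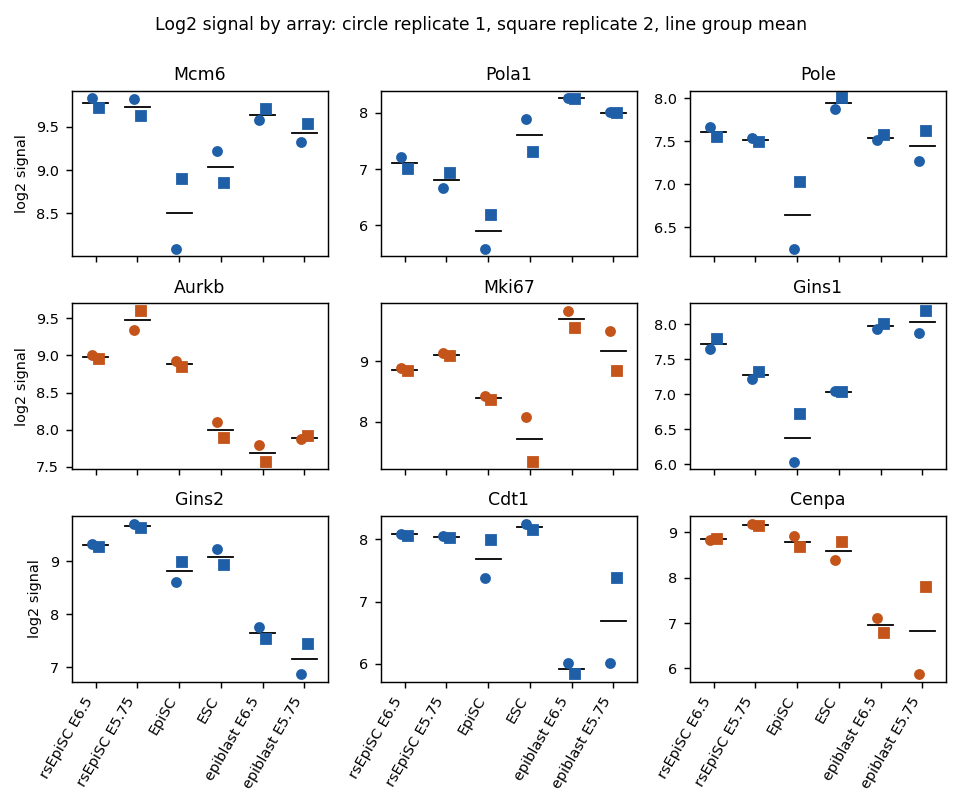
Log2 signal of 9 genes on each array (circle replicate 1, square replicate 2, line the mean of 2 arrays) for replication genes (blue) and mitosis genes (orange), each panel with its own axis. Mcm6, Pola1, Pole and Gins1 are lowest in EpiSC, Mki67 is lowest in ESC, and Gins2, Cdt1 and Cenpa are lowest in tissue.

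The rsEpiSC lines derived at different stages were compared with each other. Between rsEpiSC E6.5 and rsEpiSC E5.75, 0 of 38 genes passed in limma and 1, Aurkb, had an unadjusted p under 0.05 (-0.50 ± 0.21), where 4.66% of all genes did; 0.0857% of all genes passed. Replication genes were higher in rsEpiSC E6.5 for 20 of 24 (median 0.17), and both its arrays were above both rsEpiSC E5.75 arrays for 15 of 24, against 21.3% of all genes. They ran from -0.37 ± 0.25 (Gins2) to 0.54 ± 0.32 (Orc1, the largest subunit of the origin recognition complex). Mitosis genes had a median of -0.03, with Birc5 the highest at 0.26 ± 0.37.

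Between epiblast E6.5 and epiblast E5.75 tissue, 0 of 38 genes passed in limma, against 0.0225% of all genes. At an unadjusted p under 0.05 there was 1, the mitotic cyclin gene Ccnb2 (0.40 ± 0.18), where 12.7% of all genes had such a p. The median was 0.12 for replication genes and 0.15 for mitosis genes. Without epiblast E5.75 replicate 1 the medians were -0.04 and -0.15. The replication genes ran from -0.77 ± 0.38 (Cdt1) to 0.63 ± 0.31 (Pole2), and the mitosis genes from -0.58 ± 0.33 (Aurka) to 0.53 ± 0.37 (Birc5). The stage difference in rsEpiSC minus that in tissue was tested as an interaction, and 0 of 38 passed, against 0.00902% of all genes. At an unadjusted p under 0.05 there were 2 in that interaction, Gins2 (-0.85 ± 0.35) and Ccnb2 (-0.68 ± 0.25), where 8.65% of all genes had such a p.

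The 4 cultured groups were set against the 2 tissue groups, each group with equal weight. Of the 38 genes 18 passed, 47.4%, beside 42.3% of all genes (18.1% higher and 24.2% lower). By class it was 7 of 24 replication genes, 29.2%, and 11 of 14 mitosis genes, 78.6%. The rises were 12.5% of the replication and 42.9% of the mitosis genes. The difference between the classes was not tested, and the genes of each class went both ways. Of the replication genes 3 rose in culture (Gins2, Cdt1 and Pold1) and 4 fell (Pola1, Gins1, Tyms and Mcm4). Of the mitosis genes 6 rose (Cenpa, Cdc20, Birc5, Aurkb, Cdk1 and Ccnb2) and 5 fell (Mki67, Kif11, Top2a, Bub1b and Bub1). The median was -0.05 for replication genes, 0.26 for mitosis genes and -0.14 for all genes. After quantile normalization of the arrays the median of all genes was -0.02. The split was then 3 rises and 9 falls for replication genes and 6 rises and 5 falls for mitosis genes. The share of all genes that passed in that fit was not set beside these counts.

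Of the replication genes, Gins2, the GINS subunit beside Gins1, had 9.33 and 9.27 in rsEpiSC E6.5, 9.71 and 9.62 in rsEpiSC E5.75, 8.62 and 8.99 in EpiSC, 9.23 and 8.94 in ESC, 7.77 and 7.53 in epiblast E6.5 and 6.87 and 7.45 in epiblast E5.75. Every cultured array was above every tissue array, and the difference was 1.81 ± 0.15 (adjusted p = 9.11e-06). Cdt1, the loader that is destroyed once S phase begins, had 8.09 and 8.06 in rsEpiSC E6.5, 8.05 and 8.02 in rsEpiSC E5.75, 7.38 and 7.99 in EpiSC, 8.25 and 8.15 in ESC, 6.02 and 5.83 in epiblast E6.5 and 6.01 and 7.37 in epiblast E5.75. Its tissue arrays were at 5.83 to 6.02 except epiblast E5.75 replicate 2, which lay just below the lowest cultured array. Cdt1 rose by 1.69 ± 0.23 in culture (adjusted p = 0.000198), and Pold1 by 0.93 ± 0.14 (adjusted p = 0.00043). Pola1 fell by 1.28 ± 0.18 (adjusted p = 0.000216), and Gins1 by 0.90 ± 0.16 (adjusted p = 0.00133), so the subunits Gins1 and Gins2 of the same complex went opposite ways. Tyms, the thymidylate synthase gene, fell by 0.63 ± 0.22 (adjusted p = 0.0383), and Mcm4 by 0.47 ± 0.14 (adjusted p = 0.0208). The other 17 replication genes did not pass.

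Among the mitosis genes, Cenpa had 8.84 and 8.86 in rsEpiSC E6.5, 9.19 and 9.14 in rsEpiSC E5.75, 8.91 and 8.67 in EpiSC, 8.40 and 8.78 in ESC, 7.12 and 6.79 in epiblast E6.5 and 5.87 and 7.79 in epiblast E5.75. Every cultured array was above every tissue array, and the epiblast E5.75 arrays lay far apart. Cenpa rose by 1.96 ± 0.28 (adjusted p = 0.000259). Cdc20, the activator of the anaphase-promoting complex, had 10.18 and 10.01 in rsEpiSC E6.5, 10.07 and 10.11 in rsEpiSC E5.75, 9.97 and 9.99 in EpiSC, 9.64 and 8.91 in ESC, 8.44 and 8.31 in epiblast E6.5 and 7.18 and 8.79 in epiblast E5.75. Here too the cultured and tissue arrays did not overlap, and Cdc20 rose by 1.68 ± 0.25 (adjusted p = 0.000319). Birc5 (1.12 ± 0.22), Aurkb (1.05 ± 0.13), Cdk1 (0.93 ± 0.16) and Ccnb2 (0.70 ± 0.11) rose as well. Mki67 fell by 0.91 ± 0.17, Kif11 by 0.82 ± 0.16, Top2a, the topoisomerase that untangles sister chromatids, by 0.47 ± 0.11, and the checkpoint kinase genes Bub1b and Bub1 by 0.41 ± 0.13 and 0.34 ± 0.12. Ccna2 (-0.04 ± 0.10), Plk1 (0.07 ± 0.19) and Aurka (0.44 ± 0.20, adjusted p = 0.0912) did not pass. The falls of replication genes numbered 8 without EpiSC replicate 2 and 7 without ESC replicate 1. They numbered 2 without epiblast E5.75 replicate 2 or without epiblast E6.5 replicate 2, and the rises numbered 5 without epiblast E5.75 replicate 2. The falls of mitosis genes numbered 3 without rsEpiSC E5.75 replicate 1, rsEpiSC E6.5 replicate 2 or epiblast E6.5 replicate 2. Mcm4, Tyms, Bub1 and Bub1b lost their calls in at least 1 of the 12 fits that left out an array, and the other 14 genes kept theirs in all 12.

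**Figure D5:**
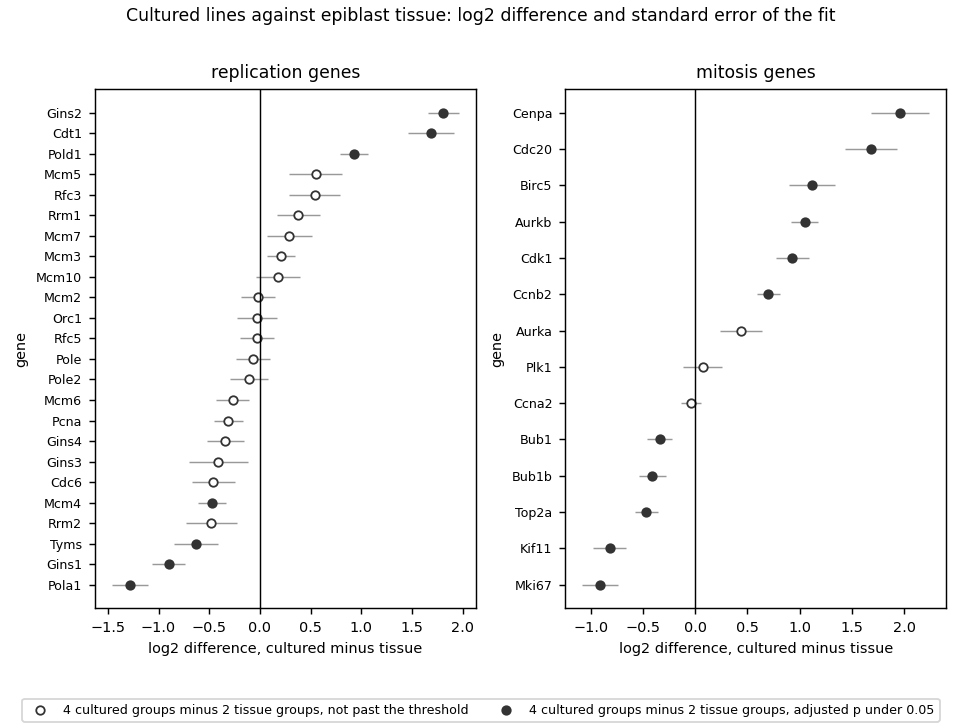
Log2 difference of each gene, mean of the 4 cultured groups minus mean of the 2 tissue groups, with the standard error of the fit, for 24 replication genes (left) and 14 mitosis genes (right), sorted by size; each panel has its own axis. Filled circles passed an adjusted p of 0.05, and they lie on both sides of 0: 3 and 6 higher, 4 and 5 lower.

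With the stage matched to tissue, 4 of 24 replication genes passed in rsEpiSC E6.5, 5 in rsEpiSC E5.75 and 8 in EpiSC, and of the 14 mitosis genes 4, 6 and 7. Between rsEpiSC E6.5 and epiblast E6.5, 8 of 38 passed (12.5% of all genes, 6.72% higher and 5.78% lower): Cdt1, Gins2 and Pold1 of replication and Cenpa, Cdc20, Aurkb and Cdk1 of mitosis rose, and Pola1 fell (-1.15 ± 0.29, adjusted p = 0.0246). The largest was Cdt1, at 2.15 ± 0.38 (adjusted p = 0.00451), and the lowest mitosis gene was Mki67 (-0.83 ± 0.28, adjusted p = 0.0732). Between rsEpiSC E5.75 and epiblast E5.75, 11 passed (21.5% of all genes, 11.5% higher and 10% lower): Gins2, Pold1, Cdt1 and Rrm1 of replication and Cenpa, Cdc20, Aurkb, Birc5, Ccnb2 and Cdk1 of mitosis rose, and Pola1 fell (-1.21 ± 0.29, adjusted p = 0.0132). The largest were Gins2, at 2.50 ± 0.25, and Cenpa, at 2.33 ± 0.45, and the lowest mitosis gene was Kif11 (-0.46 ± 0.27). Over 9 alternatives in processing, Rrm1 kept its call in 4, Cdt1 and Birc5 in 7 and the rest in 9. Between EpiSC and epiblast E5.75, 15 passed (24% of all genes, 12.6% higher and 11.4% lower). Of replication 6 fell (Pola1, Gins1, Rrm2, Mcm4, Mcm6 and Pcna) and 2 rose (Gins2 and Pold1). Of mitosis 5 rose (Cdc20, Cenpa, Birc5, Aurkb and Ccnb2) and 2 fell (Kif11 and Top2a). These calls were not equally firm over 9 alternatives in processing, apart from leaving out arrays. Rrm2 and Pcna kept theirs in 3, Pold1 in 5 and Top2a in 6. Pola1, Gins1, Gins2 and Cdc20 kept theirs in 9, and the rest in 7 or more. Pola1 was at -2.11 ± 0.29 (adjusted p = 0.0005), Kif11 at -1.09 ± 0.27 and Cdc20 at 1.99 ± 0.40. Cdt1, Gins2 and Aurkb in rsEpiSC E6.5 passed in all 4 fits that left out an array of that comparison, and the other 5 genes did not, so that 3 or 4 passed in each. In rsEpiSC E5.75, 7 passed without its replicate 1, 6 without its replicate 2 and 7 without epiblast E5.75 replicate 1. The epiblast E5.75 arrays lay far apart for several of these genes. Without epiblast E5.75 replicate 1, the difference in rsEpiSC E5.75 was 1.38 for Cenpa and 1.29 for Cdc20, which still passed, and 0.66 for Cdt1 and 0.57 for Birc5, which did not. Without epiblast E5.75 replicate 2 it was 3.29 for Cenpa, 2.91 for Cdc20, 2.03 for Cdt1 and 2.00 for Birc5. In EpiSC, without epiblast E5.75 replicate 1, Cdc20 was at 1.19 and Cenpa at 1.00, which passed, and Birc5 was at 0.70, which did not. Whether these comparisons differ from each other was not tested, and those at E5.75 share the epiblast arrays.

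The median of the replication genes against tissue of the same stage was 0.12 in rsEpiSC E6.5, 0.11 in rsEpiSC E5.75 and -0.43 in EpiSC, and after quantile normalization it was -0.02, -0.09 and -0.67. The median of the mitosis genes was 0.56, 0.27 and 0.14, and 0.34, 0.09 and -0.08 after it. With 1 array left out at a time, the replication median in EpiSC against epiblast E5.75 ran from -0.76 to -0.15, so its size depended on single arrays. The share of all genes that passed was not set beside the counts that follow. After quantile normalization EpiSC against epiblast E5.75 gave 1 rise and 9 falls of replication genes and 4 rises and 5 falls of mitosis genes. Without EpiSC replicate 1 it gave 1 rise and 2 falls of replication genes and 2 rises and 0 falls of mitosis genes.

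Other genes of the same processes were read from lists that do not hold the 38. Of 41 other replication genes, 3 rose and 1 fell in rsEpiSC E6.5 against EpiSC (median 0.55, 40 higher), and 2 rose in rsEpiSC E5.75 (median 0.47, 36 higher), where 3.89% and 3.87% of all genes passed. Slbp, the histone mRNA binding protein, rose by 1.54 ± 0.27 and 1.18 ± 0.27, and Wdhd1, which ties polymerase alpha to the helicase, by 1.58 ± 0.35 and 1.41 ± 0.35. Rpa2, a subunit of the protein that coats single-stranded DNA, rose by 1.64 ± 0.38 in rsEpiSC E6.5, and Pold4, a small subunit of polymerase delta, fell by 1.39 ± 0.33. Of 51 other mitosis genes, 2 rose and 1 fell in rsEpiSC E6.5 (median 0.40, 40 higher), and 4 rose in rsEpiSC E5.75 (median 0.39, 48 higher). The kinesin gene Kif15 rose by 1.04 ± 0.23 and 1.13 ± 0.23 and the kinetochore gene Cenpk by 1.14 ± 0.28 and 1.11 ± 0.28. Ncapd2, of the condensin complex, and Kif2c rose in rsEpiSC E5.75 (1.09 ± 0.27 and 0.92 ± 0.23), and the checkpoint gene Mad2l1 fell in rsEpiSC E6.5 (-0.97 ± 0.22). Fits without EpiSC replicate 1, which leave 1 array in EpiSC, were added after the data were seen. The calls of both lists named here did not hold in them. The medians were then 0.35 (38 of 41 higher) in rsEpiSC E6.5 and 0.21 (28 of 41) in rsEpiSC E5.75 for replication, and 0.31 (42 of 51) and 0.39 (44 of 51) for mitosis. Wdhd1 was at 0.92 in rsEpiSC E6.5 and 0.75 in rsEpiSC E5.75, and Slbp at 1.14 and 0.77.

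Between EpiSC and ESC, 1 of 41 other replication genes fell, Wdhd1 (-1.30 ± 0.35), and 1 of 51 other mitosis genes rose, Mad2l1 (1.62 ± 0.22), where 6.29% of all genes passed. Of the other replication genes 11 were higher and 30 lower (median -0.19), and of the other mitosis genes 24 were higher and 27 lower (median -0.05). These medians were 0.08 and -0.06 without EpiSC replicate 1, where Wdhd1 did not pass, and Mad2l1 passed in all 4 fits that left out an array. In rsEpiSC E5.75 against ESC, where 10.3% of all genes passed, 5 other replication genes rose (29 of 41 higher, median 0.22), among them Donson (1.5 ± 0.43), Cdc7 (1.39 ± 0.38), the kinase that fires origins, Pold3 (1.02 ± 0.23) and Slbp (0.99 ± 0.27). In the same comparison 7 other mitosis genes rose (36 of 51 higher, median 0.38), among them the securin gene Pttg1 (1.21 ± 0.29), Cenpk (1.20 ± 0.28), Nuf2 of the kinetochore (1.18 ± 0.22) and Ncapd2 (1.12 ± 0.27). Leaving out an array of this comparison left 0 to 2 of the replication and 0 to 6 of the mitosis genes of these lists past the threshold. In limma, 0 genes of these lists passed in rsEpiSC E6.5 against rsEpiSC E5.75 or in epiblast E6.5 against epiblast E5.75. At an unadjusted p under 0.05 there were 2 replication and 1 mitosis gene of these lists between the rsEpiSC stages. Between the tissue stages there were 0 and 6. Such a p was reached by 4.66% of all genes between the rsEpiSC stages and by 12.7% between the tissue stages.

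In culture against tissue, 8 other replication genes rose and 15 fell, and 10 other mitosis genes rose and 15 fell. These are 56.1% of the 41 and 49% of the 51, against 42.3% of all genes. Pold4 (2.28 ± 0.20), the thymidine kinase gene Tk1 (1.56 ± 0.21) and the clamp loader gene Rfc2 (1.29 ± 0.20) rose, and Donson fell (-1.97 ± 0.26). Of the mitosis genes, the phosphatase gene Cdc25b, which activates Cdk1 (1.54 ± 0.25), the centromere gene Cenpm (1.49 ± 0.24) and Fzr1, an activator of the anaphase-promoting complex (1.06 ± 0.25), rose, and the checkpoint kinase gene Ttk fell (-1.31 ± 0.13).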

How the data were processed

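Gene expression was measured on 12 arrays, 2 per group. Total RNA was amplified and biotin-labelled, per the labels' protocols. The deposited values are log2 signals per probe set, for which the submitters' processing notes name RMA and the oligo package; the sources used here give no version, background setting or genome build. RMA sets the arrays to a common distribution only within the set it is run on. The interquartile range over the 22180 genes differed between tissue and cultured arrays, so normalization was varied. The labels' protocol names a human array, but the probe set identifiers match a mouse annotation table. Array precision is limited by 2 arrays per group.

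Of 41345 probe sets, 23521 carry 1 symbol, 1814 carry several, which were not used, and the rest none. The 1 with the highest mean was kept per gene, giving 22180 genes. No filter was applied. A limma 3.58.1 (R 4.3.3) fit on 6 group means with a variance trend gave 11 comparisons, with Benjamini-Hochberg adjustment over all genes in each (6 residual and 5.99 prior degrees of freedom). The script was tested on simulated data. Genes given for every array are those that passed between cultured groups and those leading the comparison of culture with tissue; others named are the highest and lowest of their class per comparison and up to 4 per further list. The genes, lists and this rule were chosen with earlier results of these data known. Alternatives were quantile normalization, centring, no variance trend, array weights, fewer arrays, a replicate block, a signal filter, other handling of probe sets and leaving out each array; that last step was extended to the further lists after the data were seen. Figures were drawn with matplotlib 3.10.9.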

Additional observations from a re-analysis of the deposited data

How the results depend on the processing

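With 2 arrays per group, 1 array often decided a call, and where an array was left out the remaining array of its group was assumed to vary like the other groups. Of the 66 calls of the 38 genes over all comparisons, 63 were kept with quantile normalization and 41 when only the arrays compared were fitted. With a mean log2 signal of at least 4, which all 38 genes reached, 66 were kept. Under any alternative 0 were reversed, but several left every log2 difference as it was and could not reverse one. These were no variance trend, array weights, the replicate block, the signal filter, every probe set tested and fits on only the arrays compared or the 8 cultured arrays. The cause of the changes below was not tested. The 3 calls in EpiSC against ESC became 0 with only the arrays compared. The 5 calls in rsEpiSC E6.5 against EpiSC became 13 with array weights, 0 with only the arrays compared and 1 with every probe set tested. With 2 arrays per group, both lie equally far from their group mean, so the array weights had to be equal within each group. They were, for example, 1.07 for both EpiSC arrays and 2.12 for both rsEpiSC E6.5 arrays. These weights therefore could not set EpiSC replicate 1 below replicate 2. The 2 calls in rsEpiSC E5.75 against EpiSC became 10 with array weights, 1 with no variance trend, 0 with only the arrays compared and 0 with every probe set tested. The 4 in rsEpiSC E5.75 against ESC became 7 with array weights and 2 with every probe set tested. With only the arrays compared, the 15 in EpiSC against epiblast E5.75 became 4 and the 8 in rsEpiSC E6.5 against epiblast E6.5 became 14.

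The replicate numbers showed no sign of pairing the samples. Over 15 pairs of groups the correlation of same-numbered deviations ran from -0.26 (ESC and EpiSC) to 0.06. With 1 deviation per group this cannot exclude a batch shared by arrays of some groups. With the replicate block, 3 genes passed in rsEpiSC E6.5 against EpiSC and 1 in rsEpiSC E5.75 against EpiSC, and over all comparisons 57 of the 66 calls were kept and 2 were added.

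With quantile normalization the median of the replication genes was -0.02 in rsEpiSC E6.5 against epiblast E6.5, -0.09 in rsEpiSC E5.75 against epiblast E5.75 and 0.12 in rsEpiSC E6.5 against rsEpiSC E5.75. That of the mitosis genes was 0.34 in rsEpiSC E6.5 and 0.09 in rsEpiSC E5.75 against tissue of the same stage, -0.08 in EpiSC against epiblast E5.75 and 0.07 in culture against tissue. With arrays centred on their medians the mitosis median was 0.23 in rsEpiSC E6.5 against EpiSC, 0.19 in EpiSC against epiblast E5.75 and 0.20 between the tissue stages. With the mean of all probe sets of a gene the replication median was 0.22 in rsEpiSC E6.5 against epiblast E6.5.

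Leaving out each array in turn, the genes that passed numbered 1 to 5 in EpiSC against ESC, 0 to 9 in rsEpiSC E6.5 against EpiSC, 0 to 6 in rsEpiSC E5.75 against EpiSC, 1 to 6 in rsEpiSC E5.75 against ESC, 5 to 15 in EpiSC against epiblast E5.75, 6 to 11 in rsEpiSC E5.75 against epiblast E5.75 and 3 to 4 in rsEpiSC E6.5 against epiblast E6.5. The replication median ran from 0.46 to 1.30 in rsEpiSC E6.5 against EpiSC, 0.07 to 0.20 between the rsEpiSC stages, 0.06 to 0.31 in rsEpiSC E5.75 against epiblast E5.75 and 0.06 to 0.20 in rsEpiSC E6.5 against epiblast E6.5. The mitosis median ran from 0.11 to 0.39 in EpiSC against ESC, 0.20 to 0.35 in rsEpiSC E6.5 against EpiSC, 0.39 to 0.76 in rsEpiSC E5.75 against ESC, -0.11 to 0.03 between the rsEpiSC stages, -0.15 to 0.22 between the tissue stages, 0 to 0.30 in EpiSC against epiblast E5.75, 0.22 to 0.50 in rsEpiSC E5.75 against epiblast E5.75, 0.34 to 0.79 in rsEpiSC E6.5 against epiblast E6.5 and 0.14 to 0.41 in culture against tissue.

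Counts over all genes moved too: 1396 in EpiSC against ESC became 558 with only the arrays compared, 863 in rsEpiSC E6.5 against EpiSC became 1911 with array weights and 517 with every probe set tested, and 858 in rsEpiSC E5.75 against EpiSC became 1567 with array weights. In EpiSC against epiblast E5.75, 5321 became 3261 with array weights and 2316 with only the arrays compared, and in rsEpiSC E5.75 against epiblast E5.75, 4768 became 2909 with only the arrays compared. In culture against tissue, 9372 became 6147 with the signal filter and 14110 with every probe set tested. Between the rsEpiSC stages 19 became 257 with array weights, 157 with only the arrays compared and 10 with only the 8 cultured arrays. Between the tissue stages 5 became 0 to 13 and for the interaction 2 became 0 to 7.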

Other observations

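Of the 20 genes that regulate cell cycle transcription (E2F factors, their partners, the retinoblastoma family and the MuvB complex), 1 fell in EpiSC against ESC, and 1 fell and 1 rose in rsEpiSC E5.75 against ESC. The gene that fell in both was Mybl2, which codes for B-Myb, a partner of MuvB at mitosis genes. Mybl2 had log2 signals of 7.78 and 7.85 in rsEpiSC E6.5, 7.60 and 7.42 in rsEpiSC E5.75, 8.45 and 8.13 in EpiSC, 10.82 and 10.40 in ESC, 7.55 and 7.73 in epiblast E6.5 and 6.89 and 7.60 in epiblast E5.75. The ESC arrays were far above all others. It fell by 2.32 ± 0.28 in EpiSC (limma, adjusted p = 0.000294) and by 3.10 ± 0.28 in rsEpiSC E5.75 (adjusted p = 2.41e-05), and it passed in every fit that left out an array of either comparison. E2f8, a repressor of the E2F family, rose in rsEpiSC E5.75 against ESC (1.71 ± 0.48, adjusted p = 0.0424), with ESC arrays at 6.10 and 4.17. Without ESC replicate 2 it was at 0.75 ± 0.34 and did not pass (limma, adjusted p = 0.287), and without ESC replicate 1 at 2.68 ± 0.34 (adjusted p = 0.000617).

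Against EpiSC, 0 of the 20 passed in limma in either rsEpiSC group, with medians of 0.03 in rsEpiSC E6.5 and 0.06 in rsEpiSC E5.75. At an unadjusted p under 0.05 there were 4 in each, where 14.2% and 13.7% of all genes had such a p. Without EpiSC replicate 1 the medians were 0.02 and -0.03. In culture against tissue 3 rose and 6 fell, 45% of the list against 42.3% of all genes. Lin52 of the MuvB complex (1.67 ± 0.30), Rb1 (1.11 ± 0.22) and Mybl2 (1.11 ± 0.17) rose, and E2f3, an activator of the E2F family, fell (-1.12 ± 0.25).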
